A study of Mus musculus with 12 samples.

Results

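The genes described here encode the sarcomeric actins, proteins that act in the assembly, capping, stability or turnover of actin filaments in striated muscle, and proteins that assist the folding of sarcomere proteins. They are a list of 10 symbols, Actc1, Acta1, Lmod2, Lmod3, Tmod1, Nebl, Fhod3, Cap2, Smyd1 and Unc45b, each matched to 1 Ensembl identifier in the count files, and so 10 of 43629 genes. All 10 were among the 15059 genes that passed a filter on low counts, which a gene can pass through the group where it is high. In GHMT, 5 of them rested on 0 to 32 reads summed over 3 libraries.

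A thin filament is a polymer of actin that runs from the Z-disc, where its barbed end is anchored, towards the middle of the sarcomere, where its pointed end is free. Leiomodins add actin at the pointed end and tropomodulins cap it, while formins and nebulin-like proteins act in filament assembly and stability. Adult ventricular muscle is built mainly from alpha cardiac actin (Actc1), and alpha skeletal actin (Acta1), the isoform of skeletal muscle, is also made in the developing and in the stressed heart.

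The 12 libraries fall into 4 groups of 3. The AGHMT-labelled and GHMT libraries were made 3 weeks after mouse embryonic fibroblasts had received Gata4, Hand2, Mef2c and Tbx5, in AGHMT together with Akt, and both were sorted on αMHC-GFP, a fluorescent reporter of the promoter of Myh6, a heart myosin gene. CM libraries are isolated cardiomyocytes of the adult ventricle, and E libraries are embryonic fibroblasts that carried an empty vector for the same time. The treatment note writes AGMT for the group titled AGHMT, but lists Hand2 for it. The strain is given as C57BL/6 for all 4 groups. No sort is named for CM or E, so that the factors and the sort cannot be told apart in any comparison of the sorted groups with E or CM. The labels do not say whether replicates are separate cultures, hearts or litters, or whether animals were pooled, so p-values measure only the spread between these libraries. In bulk libraries, fewer cells of a type and less RNA per cell cannot be told apart.

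Reads in genes numbered 14386407 to 18493989 per AGHMT-labelled library, 1872558 to 2200815 in GHMT, 5120230 to 15952646 in CM and 15971154 to 33552138 in E. Akt1 was not higher in the libraries labelled AGHMT: it had 7.30, 12.002 and 19.6 CPM (read counts scaled to the size of each library) in AGHMT-labelled libraries, against 1.31, 13.5 and 13.7 CPM in GHMT (edgeR adjusted p = 0.786). Whether a delivered Akt copy would be counted at this gene is not stated, so that the label was neither borne out nor refuted, and every direction drawn from AGHMT is that of the libraries so labelled. Of 8 cardiomyocyte markers (Myh6 and Tnnt2 among them), summed levels were 1122 to 1843 CPM in AGHMT-labelled libraries, 513 to 968 CPM in GHMT, 11333 to 46212 CPM in CM and 5.17 to 8.38 CPM in E, and Nkx2-5 was at 0 in GHMT and E. The library CM 3 stood apart from the other 2 of its group, with 17410 CPM of Myh6 against 2593 and 2268 CPM. GHMT 1 stood apart by a mitochondrial share of 72.2% of its reads and a scaling factor of 0.347.

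Against E, 9 of the 10 genes were higher in both sorted groups, and Acta1 was lower. In AGHMT-labelled libraries 9 genes rose and 1 fell, where 46.5% of all tested genes were called, 21.9% higher and 24.6% lower. GHMT also had 9 genes higher and 1 lower, against 52.6% of all genes called, 19.8% higher and 32.9% lower. In CM all 10 were higher, where 42.0% of all genes were called, 19.5% higher and 22.5% lower. A gene is called where its adjusted p lies below 0.05 (quasi-likelihood test of edgeR, p-values adjusted after Benjamini and Hochberg over 15059 genes). The median log2 fold change of the 10 genes was 6.27 in AGHMT-labelled libraries, 4.70 in GHMT and 8.62 in CM, beside medians over all tested genes of -0.16, -0.87 and -0.25.

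Between the 2 sorted groups, the genes split. Actc1, Lmod2, Lmod3, Tmod1, Nebl and Smyd1 were higher in AGHMT-labelled libraries than in GHMT and Cap2 was lower, which makes 7 of 10 called, where 17.8% of all genes were called, 13.2% higher and 4.58% lower. Acta1, Fhod3 and Unc45b were not called. The median over the 10 genes was 2.29 on the log2 scale, and 2.19 without Acta1, which had no read in GHMT, against 0.57 over all genes. Against CM, AGHMT-labelled libraries had 8 genes lower, Cap2 higher and Nebl not called, where 48.1% of all genes were called, 23.7% higher and 24.4% lower. GHMT had 9 lower and Cap2 higher against CM, where 58.6% were called, 23.8% higher and 34.7% lower. The median difference from CM was -2.60 in AGHMT-labelled libraries and -5.71 in GHMT, or -5.18 with Acta1 held at its bound and -4.98 without it, beside -0.05 and -0.82 over all genes. The share of calls in each direction over all genes moved with the scaling. Of the calls in AGHMT-labelled libraries against GHMT, 74.3% were higher, and 95.4% with total counts, 90.4% without mitochondrially encoded genes and 63.7% with DESeq2's size factors.

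Counted by overlap instead of by test, all 3 AGHMT-labelled libraries lay above all 3 GHMT libraries for 6 of the 10 genes and below them for 1, leaving aside Acta1, whose 0 reads in GHMT cannot be told from its level in AGHMT-labelled libraries at that depth, while 45.9% of all genes did not overlap there, 37.4% higher and 8.47% lower. Against E, the AGHMT-labelled libraries did not overlap for any of the 10 genes, 9 of them higher, beside 71.6% of all genes, 34.8% higher and 36.9% lower. GHMT did not overlap E for 8 genes, 7 of them higher, beside 59.5% of all genes, 15.5% higher and 43.9% lower. CM lay above E without overlap for 9 genes, beside 57.2% of all genes, 24.6% higher and 32.6% lower. Against CM, AGHMT-labelled libraries were apart for 9 genes, 8 of them lower, beside 70.5% of all genes, 36.7% higher and 33.9% lower. GHMT was apart from CM for all 10, 9 of them lower, beside 58.6% of all genes, 18.4% higher and 40.2% lower.

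**Figure D1:**
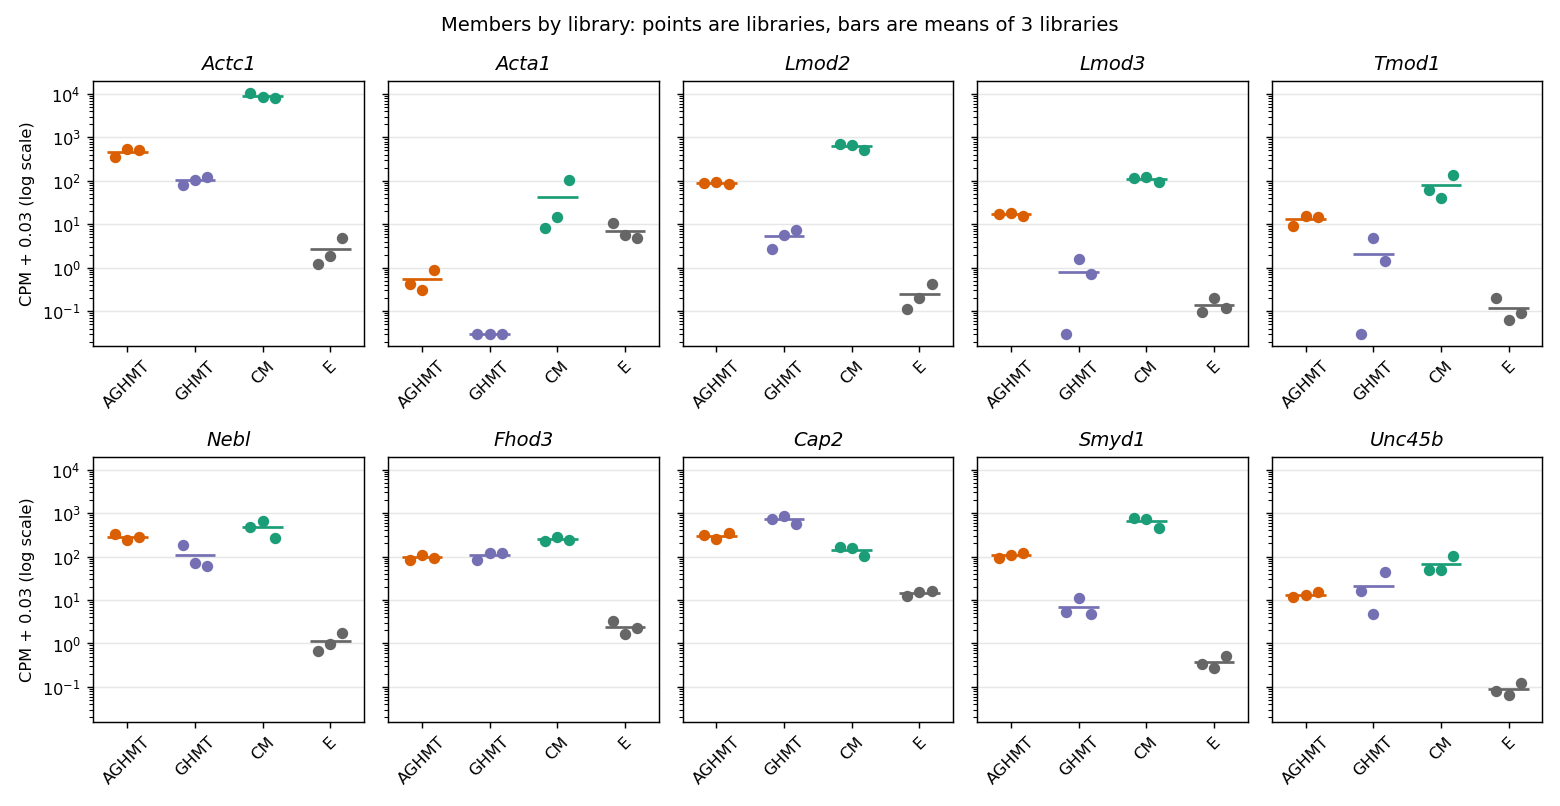
Levels of the 10 genes in CPM on a log scale, with a small constant added so that libraries at 0 are drawn; each point is a library and each bar the mean of 3. Actc1, Lmod2 and Smyd1 step down through CM, AGHMT, GHMT and E without overlap, Cap2 is highest in GHMT at 562 to 846 CPM, and Acta1 is at 0 in all 3 GHMT libraries.

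Actc1 encodes alpha cardiac actin and lies on chromosome 2 at chr2:114047282-114053548 (GRCm38, minus strand). It had 348, 541 and 517 CPM in AGHMT-labelled libraries, 80.0, 102 and 126 CPM in GHMT, 10463, 8447 and 7959 CPM in CM, and 1.19, 1.86 and 4.83 CPM in E. The 4 groups did not overlap. It was higher in AGHMT-labelled libraries than in GHMT by 2.19 on the log2 scale (SE 0.42, edgeR adjusted p = 0.0043), and by 1.62 more than the median of all genes. Its level over E was 7.43 (SE 0.53) in AGHMT-labelled libraries, 5.24 (SE 0.48) in GHMT and 11.68 (SE 0.62) in CM, with edgeR adjusted p-values of 1.26e-07, 1.65e-06 and 4.23e-09. The mean level reached 5.23% of the CM mean in AGHMT-labelled libraries and 1.15% in GHMT.

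Acta1 encodes alpha skeletal actin and lies at chr8:123891769-123894751 (GRCm38, minus strand). It had 0.384, 0.275 and 0.873 CPM in AGHMT-labelled libraries (5, 5 and 16 reads), no read in GHMT, 8.40, 14.9 and 107 CPM in CM, and 10.6, 5.61 and 4.71 CPM in E. Both sorted groups lay below E, which no other gene of the 10 did. AGHMT-labelled libraries lay below E by 3.49 on the log2 scale (a log2 fold change of -3.49, SE 0.88, edgeR adjusted p = 0.00718). With the GC correction this log2 fold change was smaller, at -2.25, and still called. Against the floor of 3 reads pooled over the GHMT libraries, 0.725 CPM, Acta1 was at least 10.8-fold lower in GHMT than in E and at least 41.7-fold lower than in CM (edgeR adjusted p = 0.0102 and 0.000594). These bounds use levels pooled over 3 libraries, to which CM 3 and E 1 gave most: without E 1 the bound against E was 7.08-fold, and without CM 3 that against CM was 15.4-fold. The call of GHMT against E was lost without GHMT 2 (edgeR adjusted p = 0.0507). The AGHMT-labelled level lies below that floor, so no fold is given between the sorted groups (edgeR adjusted p = 0.366). CM and E overlapped, and the call for CM over E (log2 fold change 2.61, SE 0.85, edgeR adjusted p = 0.0245) was lost in 7 of 25 alternatives. Without CM 3 the difference was 0.74 (edgeR adjusted p = 0.371). With all CM libraries kept, the call was lost with total counts, limma, the 2 groups alone, the replicate block and without E 2 or E 3 (adjusted p = 0.0586 to 0.127).

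The coding sequences of both genes have 1134 bases, of which 157 differ (86.16% identity), and no stretch of 50 bases is the same in both. Their first 90 coding bases, taken from the longest open reading frame of the GENCODE M21 transcripts, are printed to show how the genes are told apart. Capitals mark the 14 bases that differ.
Actc1 coding bases 1 to 90: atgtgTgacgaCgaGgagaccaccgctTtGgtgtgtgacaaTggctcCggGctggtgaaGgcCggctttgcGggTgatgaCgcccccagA
Acta1 coding bases 1 to 90: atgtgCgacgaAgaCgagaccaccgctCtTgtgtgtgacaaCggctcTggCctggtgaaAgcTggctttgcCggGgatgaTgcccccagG

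The 250 bases before the annotated start of each actin gene are shown because both hold a CArG box, the site that serum response factor binds, while their levels followed different orders of groups. The sequences come from RefSeq (GRCm38.p6, minus strand, 5′ to 3′) and capitals mark the CArG box, at -47 to -38 in Actc1 and -73 to -64 in Acta1, counted from the start. The Actc1 window lies within the annotated Actc1 gene, and 12 of its bases are annotated as exonic, in the untranslated leader. The Acta1 window holds no exonic base and lies before the gene.
Actc1, chr2:114052876-114053125: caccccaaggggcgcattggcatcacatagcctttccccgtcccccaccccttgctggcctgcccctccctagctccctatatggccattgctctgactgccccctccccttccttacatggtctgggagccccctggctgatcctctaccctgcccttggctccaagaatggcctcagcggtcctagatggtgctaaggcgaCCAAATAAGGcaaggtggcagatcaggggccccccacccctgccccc
Acta1, chr8:123894776-123895025: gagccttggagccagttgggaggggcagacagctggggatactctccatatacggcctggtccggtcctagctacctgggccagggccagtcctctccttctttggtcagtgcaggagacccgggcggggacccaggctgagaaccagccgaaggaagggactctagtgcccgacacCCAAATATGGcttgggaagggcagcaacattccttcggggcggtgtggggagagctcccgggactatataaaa

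Promoter windows of that length were found for 8 of the 10 genes, 11 windows in all, 4 of them of Nebl. In the GENCODE annotation the windows of Tmod1 and Unc45b and 1 of Nebl are exonic over all 250 bases, and the others of Nebl lie inside the gene. Searched on both strands, the CArG box was in 3 of the 11 windows, the third being 1 of Nebl, while 1.47% of 32851 windows of all genes hold it. The GATA motif AGATAA was in 2 windows of Nebl, beside 9.99% of all windows. The MEF2 motif and the T-box motif GGTGTGA were in none, beside 2.92% and 3.33% of all windows. The motifs do not overlap each other in these windows, and a match describes letters only.

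Among the 6 actin genes, shares per kilobase of exons differed between the groups. Actc1 made up 39.4% to 54.5% of actin reads per kilobase in AGHMT-labelled libraries, 6.76% to 7.99% in GHMT, 93.9% to 98.6% in CM and 0.0299% to 0.690% in E. Actb, the beta actin of non-muscle cells, held 25.2% to 43.6% in AGHMT-labelled libraries, 69.7% to 80.1% in GHMT, 0.732% to 2.63% in CM and 32.1% to 45.2% in E. Acta2, the actin of smooth muscle, held 16.1% to 19.0% in AGHMT-labelled libraries, 13.0% to 21.4% in GHMT, 0.448% to 2.01% in CM and 43.6% to 61.8% in E. Acta1 stayed at or below 1.33% in every library. Actg1, the gamma actin of non-muscle cells, reached only 0.853% in any library. Of its 50-base coding stretches 2.78% are also in Actb. Alignments that were not unique, 2813395 to 41092329 per library, were listed apart and counted at no gene. Reads that Actg1 shares with near-identical copies may thus be missing, so its share is uncertain. All shares are taken of the same sum, so any missing Actg1 reads would make those of the other actin genes too high.

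**Figure D2:**
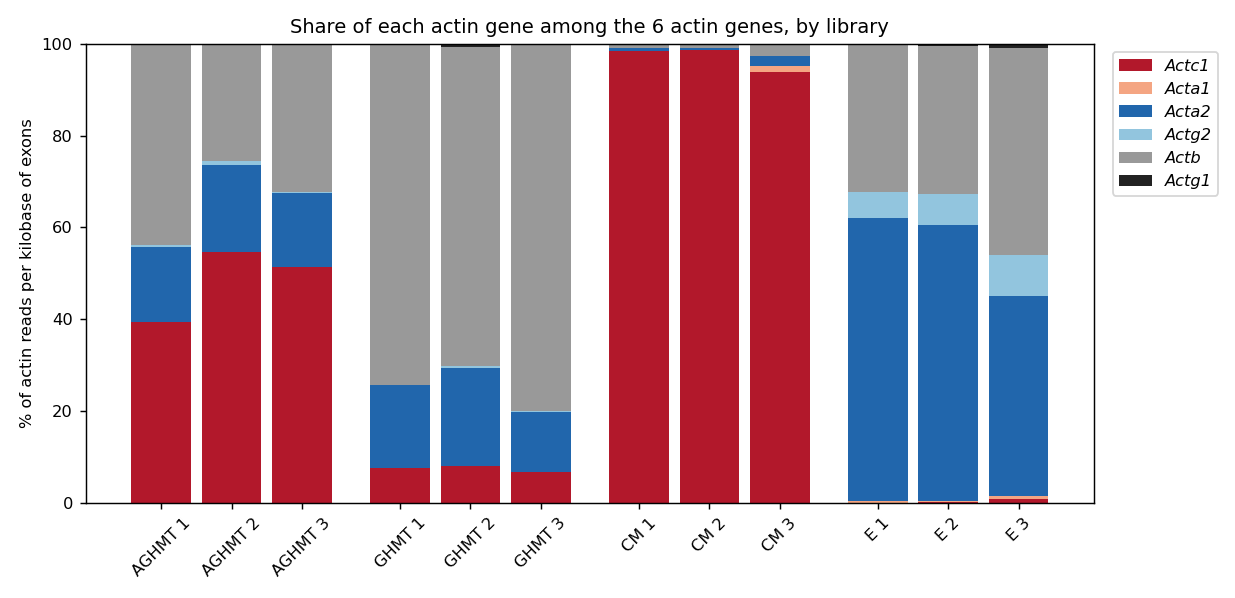
Share of each of 6 actin genes among the counted actin reads per kilobase of exons, in percent, with 1 stacked bar per library. Actc1 is the tallest segment in the CM bars (93.9% to 98.6%), Actb in the GHMT bars (69.7% to 80.1%) and Acta2 in 2 of the 3 E bars.

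The 4 other actin genes did not follow Actc1. Against E, 3 of 4 were lower in AGHMT-labelled libraries, 2 in GHMT and 3 in CM, and none was higher, at an unadjusted p below 0.05, in DESeq2 or in limma either, although with the GC correction 1 was higher in GHMT. In AGHMT-labelled libraries the Actb call (log2 fold change -1.32, edgeR adjusted p = 0.0425) was lost without mitochondrially encoded genes (0.0934), with the GC correction (0.203) and without GHMT 1 (0.0514), each an adjusted p, which left 2 of 4, as did limma. The median log2 fold change of these 4 genes was -2.38, -1.80 and -3.30 in the 3 groups, beside -0.16, -0.87 and -0.25 over all genes. Of all genes, 24.6%, 32.9% and 22.5% were called lower in the same order, and 21.9%, 19.8% and 19.5% higher. Acta2 fell by 3.10 in AGHMT-labelled libraries, by 2.60 in GHMT and by 3.95 in CM on the log2 scale (edgeR adjusted p = 0.00149, 0.00328 and 0.000198). Actg2, another smooth muscle actin, fell by 4.68, 5.54 and 7.95 in the same 3 groups (edgeR adjusted p = 3.16e-05, 2.3e-05 and 5.91e-07). Actb had 640, 414 and 533 CPM in AGHMT-labelled libraries, against 1283, 1475 and 2467 CPM in GHMT, without overlap. It was lower in AGHMT-labelled libraries by 1.72 (a log2 fold change of -1.72, SE 0.51, edgeR adjusted p = 0.0317). That call was lost with total counts (-1.23, edgeR adjusted p = 0.194) and without mitochondrially encoded genes (-1.33, edgeR adjusted p = 0.0782). Smooth muscle markers, of which Acta2, Actg2 and Lmod1 are 3 of 7, summed to 389 to 604 CPM in AGHMT-labelled libraries, 311 to 498 CPM in GHMT, 89.3 to 430.0 CPM in CM and 1179.9 to 5839 CPM in E.

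Lmod2, the leiomodin of heart muscle, adds actin at the pointed end and lies at chr6:24597762-24605414 (GRCm38, plus strand). It had 89.7, 92.1 and 86.7 CPM in AGHMT-labelled libraries, 2.62, 5.73 and 7.56 CPM in GHMT, 688, 658 and 511 CPM in CM, and 0.0836, 0.169 and 0.397 CPM in E. No groups overlapped, and the AGHMT-labelled libraries had an SD of 2.71 CPM. The difference between AGHMT-labelled libraries and GHMT was 3.96 on the log2 scale (SE 0.45, edgeR adjusted p = 0.000198), and it stayed called under every alternative setting, between 3.76 and 4.61. The 3 GHMT values rest on 2, 11 and 11 reads, and the exact Poisson 95% interval of GHMT 1, for counting error only, runs to 9.47 CPM.

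Lmod3, a leiomodin best known from skeletal muscle, lies at chr6:97238534-97252759 (GRCm38, minus strand). It had 17.7, 18.1 and 15.4 CPM in AGHMT-labelled libraries, against 0, 1.56 and 0.687 CPM in GHMT (0, 3 and 1 reads). CM had 116, 122 and 92.4 CPM and E 0.0669, 0.169 and 0.0917 CPM. AGHMT-labelled libraries exceeded GHMT by 4.03 on the log2 scale (SE 0.57, edgeR adjusted p = 0.0007). GHMT overlapped E, and its call over E (log2 fold change 2.24, SE 0.62, edgeR adjusted p = 0.00759) was lost without GHMT 2 (1.38, edgeR adjusted p = 0.313), with total counts (edgeR adjusted p = 0.101) and in limma (adjusted p = 0.238).

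Tmod1, the tropomodulin that caps pointed ends in heart muscle, lies at chr4:46038935-46116032 (GRCm38, plus strand). It had 8.91, 15.9 and 15.1 CPM in AGHMT-labelled libraries, 0, 4.69 and 1.37 CPM in GHMT (0, 9 and 2 reads), 60.8, 41.2 and 139.8 CPM in CM, and 0.167, 0.0338 and 0.0611 CPM in E. AGHMT-labelled libraries lay above GHMT by 2.39 on the log2 scale (SE 0.73, edgeR adjusted p = 0.0367) without overlap. That call was lost in 8 of 25 alternative settings, with adjusted p-values up to 0.102. GHMT overlapped E, and its call over E (log2 fold change 3.59, edgeR adjusted p = 0.00126) was lost without GHMT 2 (2.27, edgeR adjusted p = 0.13) and in limma (adjusted p = 0.12). Of the 50-base stretches of the longest Tmod1 transcript, 39.82% also lie in other transcripts, chiefly those of Tstd2 on the opposite strand. Whether reads were counted by strand is not stated in the sources used, so how reads of that stretch were assigned is not known.

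Per kilobase of exons, each of these genes was set against a relative. These pairs were chosen after their values had been seen, so the shares are a description. Lmod2 was 92.9% to 94.7% of Lmod2 and Lmod1 together in AGHMT-labelled libraries, 68.7% to 80.0% in GHMT, 99.6% to 99.9% in CM and 0.163% to 2.45% in E. The GHMT shares rest on 24 reads of Lmod2 and 18 of Lmod1, with 2 and 1 in GHMT 1. Lmod1 is the leiomodin of smooth muscle. Tmod1 was 16.9% to 30.7% of Tmod1 and Tmod3 in AGHMT-labelled libraries, 0% to 6.04% in GHMT, 58.3% to 89.2% in CM and 0.128% to 0.618% in E. Per kilobase of exons, Tmod3, the widely expressed tropomodulin, thus gave the larger share in every library of the sorted groups and the smaller in every CM library. The CM part depends on the length used. Exons of Tmod3 cover 11151 bases and its longest transcript 3918, against 3946 and 3158 for Tmod1. CM 2 had 41.2 CPM of Tmod1 and 83.1 CPM of Tmod3, so that with the longest transcripts Tmod3 is the larger there. The CM means were then 25.5 CPM per kilobase for Tmod1 and 17.4 for Tmod3. Within the leiomodins of striated muscle, Lmod2 held 85.1% to 86.3% of Lmod2 and Lmod3 in AGHMT-labelled libraries and 85.8% to 87.0% in CM. In GHMT it ran from 80.4% to 100% on 28 reads of both genes.

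**Figure D3:**
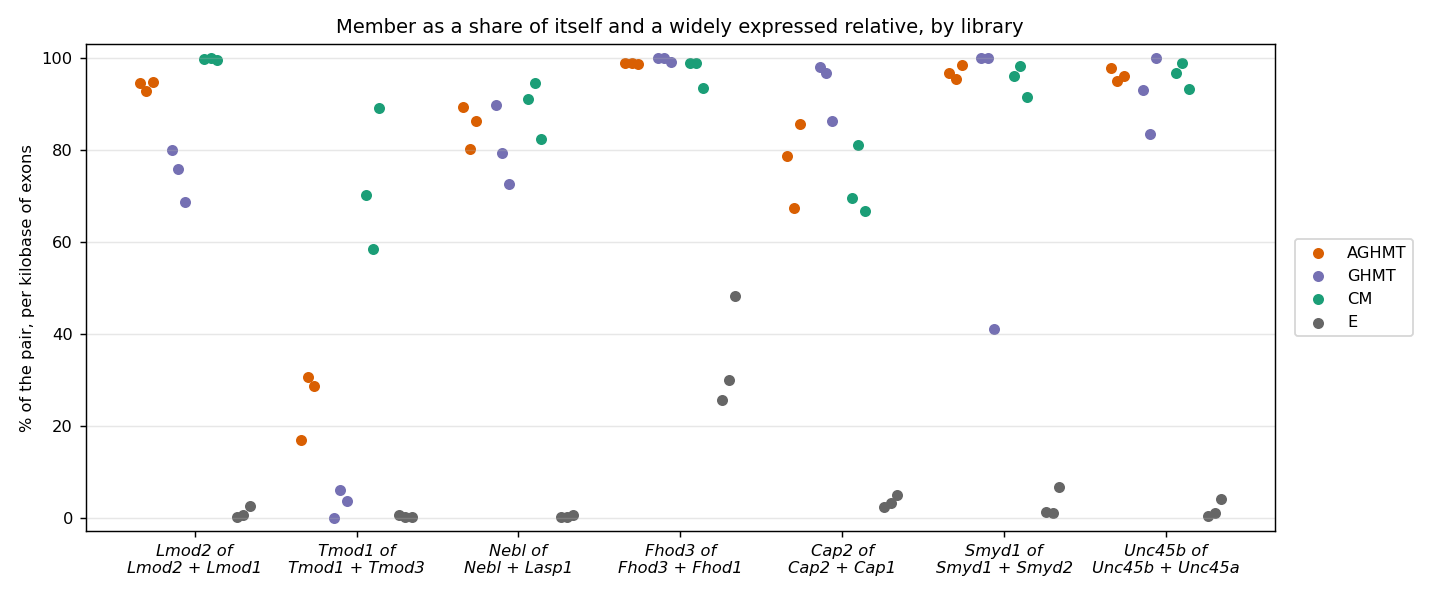
Each gene as a percentage of itself and a relative, per kilobase of exons, with 1 point per library. E libraries lie at or below 6.62% for 6 of the 7 pairs drawn, all but Fhod3 and Fhod1 (25.5% to 48.1%), and Tmod1 is the drawn pair in which AGHMT-labelled libraries (16.9% to 30.7%) lie farthest below CM (58.3% to 89.2%). In GHMT the relatives Fhod1, Smyd2, Unc45a and Lmod1 had 1, 6, 3 and 18 reads.

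Nebl encodes nebulette, a nebulin-like protein of the cardiac Z-disc region, and a shorter LIM protein from the same gene, which counts per gene do not separate. It lies at chr2:17343909-17731464 (GRCm38, minus strand). It had 322, 242 and 279 CPM in AGHMT-labelled libraries, 187, 69.8 and 59.8 CPM in GHMT, 479.7, 674 and 270.0 CPM in CM, and 0.636, 0.947 and 1.68 CPM in E. AGHMT-labelled libraries overlapped CM, from which they did not differ beyond the spread (log2 fold change -0.76, SE 0.45, edgeR adjusted p = 0.175), and their mean was 59.2% of the CM mean. With DESeq2's size factors the same difference was -1.44 (edgeR adjusted p = 0.0178), and with the GC correction -1.73 (edgeR adjusted p = 0.000154). In all, 4 of 25 alternatives called it. AGHMT-labelled libraries lay above GHMT by 1.43 (SE 0.46, edgeR adjusted p = 0.046), or 0.86 above the median of all genes, a call lost in 10 of 25 alternatives. GHMT 1, at 187 CPM, lay above the other 2 GHMT libraries.

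Fhod3 encodes a formin of the heart that promotes actin assembly in sarcomeres. It had 85.2, 110.3 and 92.3 CPM in AGHMT-labelled libraries, 85.2, 120.4 and 119 CPM in GHMT, 231, 276 and 236 CPM in CM, and 3.26, 1.62 and 2.20 CPM in E. The sorted groups overlapped and did not differ beyond their spread (log2 fold change -0.18, SE 0.30, edgeR adjusted p = 0.701), and the sign depended on the setting, between -0.72 and 0.49. Over E, Fhod3 was higher by 5.27 in AGHMT-labelled libraries, 5.45 in GHMT and 6.64 in CM (edgeR adjusted p = 5.98e-08, 5.42e-08 and 6.56e-09). GHMT was below CM by 1.19 (a log2 fold change of -1.19, edgeR adjusted p = 0.00409), but with a correction for GC content it was above by 0.33 (edgeR adjusted p = 0.384). AGHMT-labelled libraries were below CM by 1.37 (a log2 fold change of -1.37, edgeR adjusted p = 0.00224), and that call was also lost with the GC correction (-0.40, edgeR adjusted p = 0.289).

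Cap2 encodes a cyclase-associated protein of striated muscle that works with cofilin in the turnover of actin filaments, and lies at chr13:46501848-46650281 (GRCm38, plus strand). It was the 1 gene of the 10 with more CPM in both sorted groups than in CM. It had 306, 255 and 354 CPM in AGHMT-labelled libraries, 748, 846 and 562 CPM in GHMT, 169, 161 and 101 CPM in CM, and 12.04, 15.1 and 15.9 CPM in E, so that no groups overlapped. GHMT exceeded CM by 2.32 on the log2 scale (SE 0.30, edgeR adjusted p = 1.79e-05), which put its mean at 500.2% of the CM mean, and that call held in every alternative, between 1.75 and 2.48. AGHMT-labelled libraries exceeded CM by 1.08 (SE 0.29, edgeR adjusted p = 0.00675), but by 0.37 with DESeq2's size factors (edgeR adjusted p = 0.187). Relative to the median of all genes, these 2 values were 1.13 and 1.12. AGHMT-labelled libraries were below GHMT by 1.24 (a log2 fold change of -1.24, SE 0.29, edgeR adjusted p = 0.011). The sign held in all 25 alternatives, and the call was lost with total counts (-0.68, edgeR adjusted p = 0.202) and without AGHMT 2, AGHMT 3 or E 1 (edgeR adjusted p = 0.0688, 0.211 and 0.134). Cap1, the widely expressed relative, gave the larger share per kilobase in E, where Cap2 was 2.30% to 4.91% of both, against 67.3% to 85.6% in AGHMT-labelled libraries, 86.2% to 98.0% in GHMT and 66.6% to 81.1% in CM.

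Smyd1 encodes a methyltransferase of striated muscle that also assists the folding of sarcomere proteins, and lies at chr6:71213940-71322233 (GRCm38, minus strand). It had 91.6, 111 and 122 CPM in AGHMT-labelled libraries, 5.24, 10.9 and 4.81 CPM in GHMT (4, 21 and 7 reads), 788, 748 and 446 CPM in CM, and 0.301, 0.237 and 0.489 CPM in E. No groups overlapped. The difference between AGHMT-labelled libraries and GHMT was 3.86 on the log2 scale (SE 0.41, edgeR adjusted p = 0.00013), called in every alternative between 3.51 and 4.43. Means were 16.4% of the CM mean in AGHMT-labelled libraries and 1.06% in GHMT. The gene Krcc1 lies over part of Smyd1 on the opposite strand. No 50-base stretch of the longest Smyd1 transcript (3361 bases) is shared with a transcript of another gene. The exons of Smyd1 cover 4546 bases, and those outside that transcript were not searched.

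Unc45b encodes a chaperone that folds muscle myosin together with Hsp90, and lies at chr11:82910550-82943403 (GRCm38, plus strand). It had 11.7, 13.0 and 15.2 CPM in AGHMT-labelled libraries, 15.7, 4.69 and 44.0 CPM in GHMT (12, 9 and 64 reads), 48.2, 50.2 and 106 CPM in CM, and 0.0502, 0.0338 and 0.0917 CPM in E. The GHMT libraries spread on both sides of the AGHMT-labelled ones, which they did not differ from beyond that spread (log2 fold change -0.69, SE 0.60, edgeR adjusted p = 0.444). Without GHMT 3 the sign turned (0.56, edgeR adjusted p = 0.484). Over E it was higher by 6.26 in AGHMT-labelled libraries, 6.95 in GHMT and 8.60 in CM (edgeR adjusted p = 8.31e-06, 4.84e-06 and 5.91e-07). GHMT lay below CM by 1.66 (a log2 fold change of -1.66, edgeR adjusted p = 0.0301), a call lost without CM 3 (-1.20, edgeR adjusted p = 0.134), without GHMT 1 or GHMT 2 (edgeR adjusted p = 0.076 and 0.0808), and with the GC correction (0.02, edgeR adjusted p = 0.988). AGHMT-labelled libraries lay below CM by 2.34 (a log2 fold change of -2.34, edgeR adjusted p = 0.00574), a call lost with the GC correction (-1.10, edgeR adjusted p = 0.0877). Of the longest transcript's 50-base stretches, 7.604% also lie in other transcripts, those of Unc45bos and Slfn5os on the opposite strand.

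Lmod2 and Smyd1 were the pair of the 10 genes with the highest likeness, and their windows before the RefSeq start are shown for that reason. Over the 12 libraries, which share 4 group means, their log2 CPM had a Pearson r of 0.9943. Neither window held any of the 4 motifs. The Lmod2 window ends in 9 bases of its untranslated leader (plus strand), and the Smyd1 window (minus strand) lies within the annotated gene, outside its exons. Both are from RefSeq, GRCm38.p6.
Lmod2, chr6:24597521-24597770: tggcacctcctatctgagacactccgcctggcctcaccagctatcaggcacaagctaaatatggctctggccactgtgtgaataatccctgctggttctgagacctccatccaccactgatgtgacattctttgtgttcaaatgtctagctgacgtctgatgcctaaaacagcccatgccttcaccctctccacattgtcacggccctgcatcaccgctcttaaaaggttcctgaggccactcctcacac
Smyd1, chr6:71262282-71262531: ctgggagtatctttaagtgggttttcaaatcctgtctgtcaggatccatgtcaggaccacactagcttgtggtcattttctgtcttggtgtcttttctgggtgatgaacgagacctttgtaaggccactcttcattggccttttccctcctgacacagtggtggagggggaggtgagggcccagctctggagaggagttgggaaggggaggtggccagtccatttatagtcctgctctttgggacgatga

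Pairs among the 9 genes other than Acta1 had r between 0.30 and 0.99 with a median of 0.89 (36 pairs), while the 9 pairs with Acta1 ran from -0.68 to 0.38. Deviations from the group means had a median r of 0.13 over all 45 pairs. Of the tested genes, those most like a member over the 12 libraries were Lrrc39 for Actc1 (r = 0.9927), Sphk2 for Acta1 (r = 0.9873), Tmem182 for Lmod2 (r = 0.9947) and Myh7, a heart myosin gene, for Lmod3 (r = 0.9972). For Tmod1 it was Wipf3 (r = 0.992), for Nebl Tbc1d4 (r = 0.9913), for Fhod3 Fmo1 (r = 0.993), for Cap2 Selenop (r = 0.994) and for Smyd1 Lmod2. These values describe 12 libraries that share 4 group means and their depths.

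**Figure D4:**
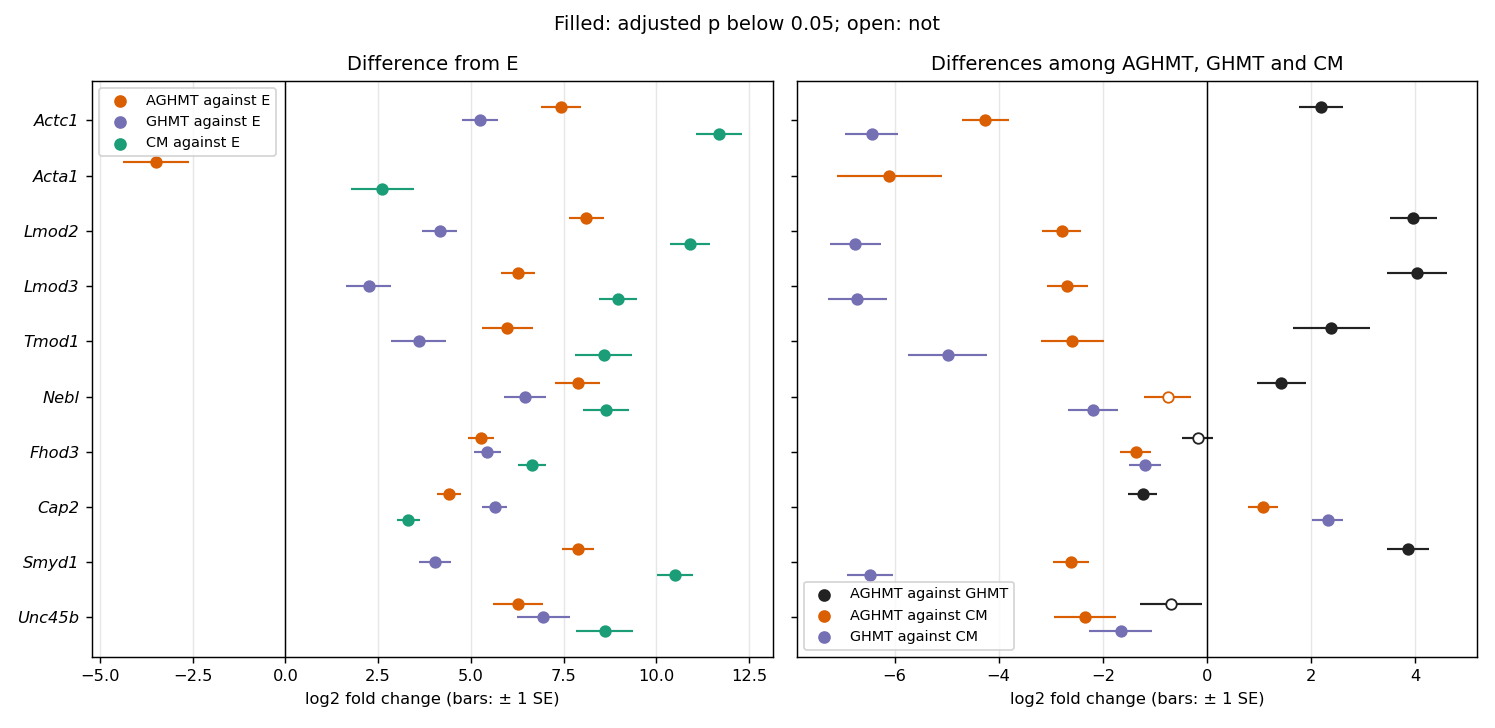
Log2 fold changes of the 10 genes with bars of 1 SE, against E on the left and among AGHMT, GHMT and CM on the right; filled points have an edgeR adjusted p below 0.05, and Acta1 is not drawn for GHMT, where it had no read. Acta1 is the 1 gene drawn below 0 against E, at -3.49 in AGHMT-labelled libraries, and Cap2 the 1 gene drawn above 0 against CM.

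The order of the genes per kilobase of exons also differed between the groups. In AGHMT-labelled libraries Actc1 was highest with a mean level of 289.7 CPM per kilobase, followed by Cap2 with 73.3 and Lmod2 with 45.3, none of which overlapped. In GHMT Cap2 was highest with 173 CPM per kilobase, then Actc1 with 63.4 and Fhod3 with 14.9. From Fhod3 down to Acta1 each neighbour in that order overlapped the next. In CM Actc1 had 5535 CPM per kilobase, Lmod2 313, Smyd1 145 and Lmod3 49.6, without overlap among them, and from Cap2 down to Unc45b the neighbours overlapped. Lmod3 (41.7 to 55.0) overlapped Nebl (17.7 to 44.3) and Acta1 (5.47 to 69.7), which stood lower in the order. In E Acta1 had 4.54 CPM per kilobase, Cap2 3.45 and Actc1 1.62, and each overlapped the next. With the length of the longest transcript in place of all exons, Nebl moved to place 4 in CM and changed places with Smyd1 in AGHMT-labelled libraries, and the first 3 places stayed as they were in all 4 groups.

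Other genes of the thin filament and of actin turnover were counted from lists. Of the 9 troponin and tropomyosin genes 8 were tested. Between AGHMT-labelled libraries and GHMT none was called in edgeR, where 17.8% of all genes were, nor in DESeq2 or limma, with 1 at an unadjusted p below 0.05. Without mitochondrially encoded genes, 1 was called higher. Tnnt2, cardiac troponin T, had 426, 638 and 365 CPM in AGHMT-labelled libraries and 231, 206 and 269 CPM in GHMT, without overlap (log2 fold change 1.02, SE 0.53, edgeR adjusted p = 0.191). Over E, 3 of 8 rose and 2 fell in AGHMT-labelled libraries and likewise in GHMT, and 5 rose and 3 fell in CM. The medians were 0.28, 0.11 and 3.69, beside -0.16, -0.87 and -0.25 over all genes. In these comparisons 21.9%, 19.8% and 19.5% of all genes were higher, and 24.6%, 32.9% and 22.5% lower. Tnnt2 was higher than in E by 7.73 in AGHMT-labelled libraries, 6.71 in GHMT and 10.61 in CM (edgeR adjusted p = 1.42e-06, 3.88e-06 and 9.71e-08). Tpm1, the tropomyosin with the highest counts of the list, was higher than E in CM (2.48, edgeR adjusted p = 1.43e-05), and its differences from E were 0.26 in AGHMT-labelled libraries and -0.47 in GHMT, neither called.

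Of 18 genes of general filament turnover, 3 were lower in AGHMT-labelled libraries than in GHMT and none was higher in edgeR, beside 4.58% of all genes lower and 13.2% higher. The counts were 1 higher and 5 lower at an unadjusted p below 0.05, in DESeq2 and in limma, and 0 to 1 higher and 1 to 5 lower over the scalings. Against E, 21.9% of all genes were higher and 24.6% lower in AGHMT-labelled libraries, 19.8% and 32.9% in GHMT, and 19.5% and 22.5% in CM. Of the 18 genes, 4 were higher and 3 lower in AGHMT-labelled libraries, 8 higher and 3 lower in GHMT, and 3 higher and 11 lower in CM. Their medians were 0.19, 0.54 and -1.36, beside -0.16, -0.87 and -0.25 over all genes. With total counts the split of the 18 was 1 higher and 5 lower in AGHMT-labelled libraries and 1 higher and 9 lower in GHMT, and with the GC correction 3 and 4, and 5 and 5. Dstn, a cofilin relative that severs filaments, was highest in GHMT, as Cap2 was. It had 1734, 1366 and 1526 CPM in AGHMT-labelled libraries, 3891, 2933 and 2149 CPM in GHMT, 172, 215 and 121 CPM in CM, and 646, 578 and 810 CPM in E. It was lower in AGHMT-labelled libraries than in GHMT by 0.96 (a log2 fold change of -0.96, edgeR adjusted p = 0.0371), a call lost with total counts (-0.30, edgeR adjusted p = 0.509), with mitochondrially encoded genes left out (edgeR adjusted p = 0.153), with the replicate number as a block (edgeR adjusted p = 0.0829) and without GHMT 1 (edgeR adjusted p = 0.15). Cfl1, non-muscle cofilin, fell against E by 4.28 in AGHMT-labelled libraries, 4.32 in GHMT and 3.27 in CM (edgeR adjusted p = 0.000351, 0.000317 and 0.00125).

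Of 11 relatives of the genes described above, 1 was higher and 6 were lower than E in AGHMT-labelled libraries, 2 and 7 in GHMT, and 3 and 3 in CM, with medians of -2.06, -3.04 and -0.27. Over all genes the shares higher and lower were 21.9% and 24.6%, 19.8% and 32.9%, and 19.5% and 22.5%, with medians of -0.16, -0.87 and -0.25. Lasp1, a nebulin-family protein of non-muscle cells, fell against E by 3.09 in AGHMT-labelled libraries, 4.29 in GHMT and 3.08 in CM (edgeR adjusted p = 2.01e-05, 2.89e-06 and 1.09e-05). Nrap, a nebulin-related anchoring protein of the heart, was higher than E by 4.44 in AGHMT-labelled libraries and by 9.58 in CM (edgeR adjusted p = 3.5e-05 and 1.1e-07). GHMT overlapped E on 4 reads of Nrap (edgeR adjusted p = 0.0431), a call lost with DESeq2's size factors, total counts, mitochondrially encoded genes left out, the replicate block and without GHMT 1 (edgeR adjusted p = 0.056 to 0.236), and 1 relative was higher in GHMT with 4 of these settings, none with total counts. Tmod3, the other relative called higher in GHMT (log2 fold change 1.02), turned sign in other settings. It was -0.41 with total counts (edgeR adjusted p = 0.358) and -0.55 with the GC correction (edgeR adjusted p = 0.0609). The lower calls of Fhod1, Smyd2 and Unc45a in GHMT rest on 1, 6 and 3 reads. They were lost with the GC correction (edgeR adjusted p = 0.174, 0.166 and 0.343) and without GHMT 1 (edgeR adjusted p = 0.0691, 0.0575 and 0.0658). In both settings 5 relatives were called lower. Of 10 chaperones, none was called between AGHMT-labelled libraries and GHMT in edgeR, where 17.8% of all genes were. There were 3 higher at an unadjusted p below 0.05, 1 in DESeq2, 2 in limma, 2 without mitochondrially encoded genes and 1 without CM 3. Over E, 2 were higher and 3 lower in AGHMT-labelled libraries, and 4 higher and 2 lower in CM. Both higher calls in AGHMT-labelled libraries, of Cryab and Dnajb6, were lost with DESeq2's size factors, total counts and the replicate block, while the GC correction gave 4 higher. GHMT had 3 lower and none higher in edgeR, at an unadjusted p below 0.05 or in limma, with 1 higher in DESeq2 and without GHMT 1. The GHMT count was 3 higher and 2 lower with the GC correction, and 7 lower with total counts. Medians were -0.32 in AGHMT-labelled libraries, -0.65 in GHMT and 0.69 in CM, beside -0.16, -0.87 and -0.25 over all genes. The shares of all genes called against E are those given for the relatives, and 3 of 10 lower in GHMT lies near the 32.9% of all genes. Cryab, a small heat shock protein of heart muscle, was higher than E in CM by 4.73 (edgeR adjusted p = 0.00011).

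Markers of other cell types moved beside the 6 genes that were higher in AGHMT-labelled libraries than in GHMT. In that comparison 13.2% of all genes were called higher and 4.58% lower. Of the 8 cardiomyocyte markers, 7 were tested there, with 3 called higher and 4 not called. Endothelial markers summed to 50.5 to 60.6 CPM in AGHMT-labelled libraries, 2.62 to 5.73 CPM in GHMT, 416 to 614 CPM in CM and 4.94 to 6.12 CPM in E, with 4 of 6 called higher in AGHMT-labelled libraries than in GHMT, where Egfl7 was at 0. Fibroblast markers summed to 5990.1 to 6992 CPM, 2007 to 3887 CPM, 629 to 692 CPM and 11136 to 13407 CPM in AGHMT-labelled, GHMT, CM and E libraries, with 3 of 8 called higher and 1 lower. Macrophage markers summed to 25.1 to 37.9 CPM in AGHMT-labelled libraries, 0 to 6.19 CPM in GHMT, 71.2 to 173 CPM in CM and 10.7 to 37.9 CPM in E, with 2 of 6 called higher and 4 at 0 in GHMT. Mast cell markers, of which 2 of 5 were tested and Mcpt4 alone gave nearly all reads in the sorted groups (308.6 to 338.8 CPM in AGHMT-labelled libraries, 65.5 to 162 CPM in GHMT), summed to 310.4 to 339.5 CPM, 65.5 to 162 CPM, 7.21 to 10.3 CPM and 0.217 to 0.489 CPM in the same order of groups. Tpsb2 was at 0 in both sorted groups and in E, and Cpa3, Kit and Cma1 were at 0 in GHMT. The skeletal muscle factors Myod1 and Myf5 were at 0 in all 4 groups, and skeletal muscle markers summed to 10.5 to 21.3 CPM in AGHMT-labelled libraries, 0 to 7.56 CPM in GHMT, 42.9 to 1149 CPM in CM and 0.642 to 2.41 CPM in E. Single genes carried these sums: Tnnt3 had 16.2, 19.4 and 9.49 CPM in AGHMT-labelled libraries, and Ckm, a creatine kinase also made in heart, had 1138 CPM in CM 3. The part of these cells and of the mitochondrial share (36.6% to 42.7% in AGHMT-labelled libraries, 27.8% to 72.2% in GHMT) in the differences was not tested.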

How the data were processed

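Total RNA of 12 mouse libraries was sequenced. Per the labels, TRIzol was used for extraction and TruSeq Stranded RNA LT for the libraries. Per the submitters' processing notes, Bowtie2 2.0.6, HTSeq and DESeq were used with mm10, while the sources used here name neither the strand setting nor the annotation version. The authors deposited 1 file of read counts per Ensembl gene and library, and a table of normalized signal, which is counts divided by 1 size factor per library. Division of that table's columns by their smallest value gave 100% whole reads (tolerance 0.001), and each library's sum was that of its count file. On these reads edgeR called 6312 of 15050 genes in CM against E. Of 43629 identifiers, 42548 were matched to GENCODE M21 (GRCm38), which gave positions and exon lengths. Reads in no gene were 8.45% to 20.2% and ambiguous reads 1.12% to 3.89% of uniquely aligned reads, and both stayed out of library sizes. Alignments that were not unique stayed out too, and in every library they outnumbered the reads in genes.

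Counts were filtered with filterByExpr (minimum count 10, minimum total 15), scaled by trimmed means of M values (TMM) and fitted for all 12 libraries in 1 robust quasi-likelihood model of edgeR 4.0.16 (R 4.3.3), with a prior count of 2 and Benjamini-Hochberg adjustment over all tested genes at a threshold of 0.05. The SE is the log2 fold change divided by the square root of F. The script was tested on simulated counts. CPM are on the TMM scale, and 3 reads were worth 0.164 to 0.231 CPM in AGHMT-labelled libraries, 1.56 to 3.93 CPM in GHMT, 0.223 to 0.515 CPM in CM and 0.0502 to 0.101 CPM in E. Poisson intervals (95%) and the floor of 3 reads cover counting error only.

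The genes described, the lists and the settings were chosen with earlier results of these data known. Named are all 10 genes, the gene of each list with the highest mean and up to 2 called genes with the largest change against E, of which not all are given, and the tested gene with the highest Pearson r to each of the 10, of which 1 is not reported here. Alternatives were DESeq2 size factors, total counts, mitochondrially encoded genes left out, all genes with a read, only genes above 1 CPM in 3 libraries, the Wald test of DESeq2 1.42.0, limma 3.58.1 on log2 of the deposited values plus 1, only the 2 groups compared, a replicate block, libraries thinned to 1 depth, a GC correction, a prior count of 0.5, each library left out in turn and, added after the data had been seen, the recovered reads. Same-numbered libraries correlated between -0.72 and 0.13 in their deviations from the group means, so the numbers were not taken as pairs. Motifs were searched in RefSeq windows of 250 bases.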

Additional observations from a re-analysis of the deposited data

How the results depend on the processing

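Each of 60 results (10 genes, 6 comparisons) was recomputed under up to 25 alternatives. Of these values 1442 kept direction and side of the threshold, 43 lost a call, 4 gained one and 7 turned sign, and 45 results changed under none. All calls in AGHMT-labelled libraries against E held in all 25. Signs turned for Fhod3 in AGHMT against GHMT with total counts (0.34), with mitochondrially encoded genes left out (0.20), without AGHMT 3 (0.49) and without E 1 (0.44), for Unc45b there without GHMT 3 (0.56), and with the GC correction in GHMT against CM for Fhod3 (0.33) and Unc45b (0.02). Over the libraries left out, Fhod3 ran from -0.31 to 0.49 and Unc45b from -1.19 to 0.56 in that comparison. The cause was not tested. With 1 library left out, the number of called genes ran from 4 to 7 in AGHMT against GHMT, the lowest without AGHMT 2 (where 6.62% of all genes were called, against 17.8% with all libraries), 7 to 10 in GHMT against E, 10 in AGHMT against E, 9 to 10 in CM against E, 9 to 10 in GHMT against CM and 9 in AGHMT against CM. The replicate number as a block gave 5, 10, 10, 9, 10 and 9 called genes in the same order of comparisons, and same-numbered libraries did not deviate together. Over scalings, the median of all genes moved by -1.18 to 0.40 with total counts, -0.70 to 0.38 with DESeq2's size factors and -0.39 to 0.30 with mitochondrially encoded genes left out, and the GC correction moved it by -0.04 to 0.37. With only the 2 groups compared, Acta1 could not be tested in AGHMT against GHMT, nor Lmod2, Lmod3 and Tmod1 in GHMT against E, since the filter left them out. Depth limits GHMT most, where 3 reads are worth up to 3.93 CPM.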
